A study of Mus musculus with 3 samples.

Results

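The collagen gene family was described across the mouse uterus at pregnancy day 7.5. Its members were taken as every gene row whose symbol has the form Col, a number, a and a number, with at least 20 UMIs (unique molecular identifiers, 1 per captured RNA molecule) over the 3 deposited matrices. This gave 35 genes of 44 rows of that form, among 32285 gene rows in all. By type, 8 were fibrillar (collagens 1, 3, 5 and 11), 8 were network-forming (collagens 4 and 8), 5 were chains of collagen 6 and 14 were other collagens. The 9 rows under the limit were Col9a2, Col25a1, Col6a6, Col9a1, Col28a1, Col2a1, Col17a1, Col19a1 and Col10a1, with 0 to 14 UMIs. Next to the limit, Col9a2 had 14 UMIs just outside it and Col4a3 had 37 just inside it.

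Collagens are the main structural proteins of the extracellular matrix, and each molecule is a triple helix of 3 chains, made from 1 gene or from several. Fibrillar collagens pack into the tensile fibrils of connective tissue, collagen 4 forms the mesh of basement membranes, collagen 6 forms beaded filaments around cells, and many of the others sit on fibrils or anchor membranes to them. After implantation the stroma around the embryo differentiates into the decidua, whose matrix is remodelled, while the muscle layers and the stroma beneath them keep a connective tissue framework.

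Uterine sections of mated females dissected at pregnancy day 7.5 were assayed with Visium, in which barcoded spots on a slide capture poly(A) RNA from the tissue above them, often from more than 1 cell. All 3 libraries belonged to 1 group, with no treatment and no non-pregnant tissue beside it. Females had been kept to 8 weeks of age before mating, and the sections were frozen. The library of replicates 1 and 2 mixed 2 biological replicates in 1 matrix and counted as 1 sample, beside replicate 3 and replicate 4. The 3 libraries held 1811, 1081 and 1086 spots with 16915926, 27279702 and 29953072 UMIs, in that order, and 3939 spots with at least 1000 UMIs were used. P-values rest on the spread left between sums by region and library, after both were fitted (21 residual degrees of freedom). That spread is shared by all regions, which come from the same 3 libraries, so the sums are not independent samples.

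Comparisons were made between tissue regions, which were clusters of spots found without the collagen genes, the pathway genes and the marker genes. Of 12 regions, 7 took a role from marker lists. The stroma region (region 4, 444 spots) was led by Igfbp2, Nppa and Wfikkn2, and the smooth muscle region (region 10, 241 spots) by Fbxl22, Hmcn2 and Ppp1r12b. The natural killer region (region 8, 265 spots) was led by Frem1, Gzmf and Gzme, the endothelial region (region 3, 426 spots) by Srd5a1, S100a8 and Mrgprg, and the trophoblast region (region 11, 185 spots) by Plet1, Prl7a1 and Rhox5. The decidual region (region 7, 300 spots), the common reference of the contrasts, was led by Ptx3, Sprr2h and Fabp4. The 7th role, that of the embryo, fell to region 12 (134 spots; Tnnc1, Kng2 and Fbln7), where the data went against it. The embryo list summed to 37.4 to 59.0 CPM in region 12 with Amn, Mixl1 and T at 0, against 79.8 to 959 CPM in the trophoblast region, so region 12 is called by its number. It had enough spots in 2 libraries only. A role went to the region in which a marker list had its highest score (mean log2 deviation from the mean over regions) among regions not yet taken, and it names no pure cell type. In the stroma region the smooth muscle list scored 4.03 and the gland list 2.41, above the stroma list at 2.11. In the endothelial region the trophoblast list scored 1.46, above the endothelial list at 1.17. The natural killer list scored 2.94 in the natural killer region, 2.61 in region 2 (486 spots) and 2.02 in region 5 (315 spots). The names of the stroma, endothelial and natural killer regions are therefore working names for regions 4, 3 and 8.

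Marker lists are given here once, as sums in CPM (counts per 1000000, scaled with TMM, edgeR's trimmed mean factors), and their part in the collagen differences was not tested. The 12 smooth muscle markers summed to 31961 to 40576 CPM in the smooth muscle region and 10490 to 17099 CPM in the stroma region, against 851 to 1039 CPM in the decidual region with Myocd at 0. The 12 stroma markers, all with counts in both, summed to 8525 to 9592 CPM in the stroma region and 7836 to 8950 CPM in the decidual region, so these sums overlapped. They summed to more in regions 1, 2, 3, 6 and 9 than in the stroma region. The 10 natural killer markers summed to 1200 to 2457 CPM in the natural killer region, against 7.74 to 11.4 CPM in the decidual region with Klrb1b and Ncr1 at 0. In region 2 they summed to 880 to 2647 CPM, which overlapped with the natural killer region, and in region 5 to 296 to 842 CPM. The 12 endothelial markers summed to 1900 to 2321 CPM in the endothelial region and 1760 to 1954 CPM in region 12, where Col4a1 and Col4a2 had their highest levels, against 953 to 1056 CPM in the decidual region. The 12 trophoblast markers summed to 3507 to 5169 CPM in the trophoblast region with Psg23 at 0, against 156 to 208 CPM in the decidual region with Prl2c2 and Psg23 at 0. The 12 decidual markers summed to 80948 to 168329 CPM in the decidual region and to 208665 to 357239 CPM in region 12. They summed to 20478 to 46507 CPM in the endothelial region, 12223 to 51764 CPM in the trophoblast region, 4951 to 12236 CPM in the stroma region and 1555 to 1842 CPM in the natural killer region. Other lists moved too. The 8 gland markers summed to 1039 to 3517 CPM in the stroma region and 288 to 3314 CPM in the smooth muscle region (Foxa2 and Ltf at 0), against 43.3 to 85.1 CPM in the decidual region (Ltf at 0). The 8 macrophage markers summed to 830 to 1182 CPM in the stroma region, 903 to 1114 CPM in the smooth muscle region, 678 to 1105 CPM in the endothelial region and 508 to 582 CPM in the trophoblast region, against 152 to 178 CPM in the decidual region. The 5 red blood cell markers summed to 861 to 7900 CPM in the stroma region, 252 to 43717 CPM in the smooth muscle region and 7310 to 8337 CPM in the trophoblast region, against 140 to 206 CPM in the decidual region with Alas2 at 0. The 6 parietal endoderm markers, which include the matrix genes Sparc and Lamb1, summed to 5847 to 7356 CPM in the stroma region and 3089 to 3120 CPM in the smooth muscle region, against 996 to 1303 CPM in the decidual region. In such mixed spots, fewer cells of a type and less RNA per cell cannot be told apart.

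The types differ in their coding sequences in a way that the rule, which used symbols only, did not. A collagen helix needs a glycine at every 3rd residue, which is a GGN codon at every 3rd codon, and the 2 stretches shown are 90 coding bases each from the GENCODE M21 transcripts, with every GGN codon, read in frame, in capitals. They are shown because the unbroken length of this repeat sets the fibrillar type apart from the network type. Between regions, the mean level of Col1a2 varied 209-fold and that of Col4a1 3.45-fold. Such even levels were not shared by every network member. Col4a5 had 84.2, 53.6 and 81.2 CPM in the stroma region (libraries of replicates 1 and 2, replicate 3 and replicate 4), against 4.44, 3.66 and 3.87 CPM in the decidual region.
Col1a2 (chromosome 6, codons 97 to 126): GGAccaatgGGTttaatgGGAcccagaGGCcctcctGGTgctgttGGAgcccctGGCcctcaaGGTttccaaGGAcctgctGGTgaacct
Col4a1 (chromosome 8, codons 148 to 177): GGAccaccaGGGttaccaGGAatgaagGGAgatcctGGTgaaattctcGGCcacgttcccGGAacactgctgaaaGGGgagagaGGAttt
In the Col1a2 stretch 10 GGN codons followed each other without a break. In the Col4a1 stretch there were 9, and the repeat was interrupted. The stretches were placed differently: that of Col1a2 begins with its longest run, and that of Col4a1 crosses the end of its longest run. This run has 40 triplets from codon 43, and a stretch inside it would be unbroken too. Over whole coding sequences, the longest unbroken run was 337 to 344 triplets in the 8 fibrillar members, with a median of 338. It was 39 to 66 triplets in the 8 network members, with a median of 45, and 37 to 87 triplets in the 5 collagen 6 chains. Among the 14 other collagens it was 23 to 217 triplets, with Col27a1 at 217 and Col24a1 at 216, and Col26a1 lowest at 23.

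Over whole sections, the family gave 410095 UMIs, which were 0.618% of all UMIs in the library of replicates 1 and 2, 0.525% in replicate 3 and 0.542% in replicate 4. Fibrillar members held 56.5% of the collagen UMIs, network members 24.5%, collagen 6 chains 11.2% and the other collagens 7.88%. A few genes made up most of it. Col1a2, the second chain of collagen 1, gave 75960 UMIs, Col3a1, the single chain of collagen 3, gave 75098, and Col1a1, the first chain of collagen 1, gave 55741. The basement membrane chains Col4a1 and Col4a2 gave 54707 and 42845. UMIs count molecules at the poly(A) end, so these levels do not grow with transcript length. Between libraries, Col4a1 varied little, with 704, 729 and 765 CPM in the libraries of replicates 1 and 2, replicate 3 and replicate 4, and Col1a2 had 1239, 924 and 996 CPM.

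Collagen levels differed between regions for each of the 29 members that passed edgeR's filter on low counts. The 6 members that did not pass were Col11a2, Col4a3, Col4a4, Col6a5, Col9a3 and Col23a1, and they were left out of these tests. Of all 6497 genes tested across regions, 91.2% were called at an adjusted p under 0.05 (edgeR's quasi-likelihood F-test, Benjamini-Hochberg), so a call by itself sets no gene apart. The F value was highest for Col1a2 at 574, followed by Col16a1 at 381 and Col5a1 at 265, and it was lowest for Col13a1 at 3.01 (edgeR's adjusted p = 0.0074). Of the 35 members, 13 had their highest mean level in the stroma region, 6 in region 9 and 5 in the endothelial region. Region 9 (237 spots), led by Itga8, Spink8 and Rnase4, had the highest gland markers, with 7799 to 12694 CPM for the 8 genes. For most members the highest region was not separable from the next: the libraries' values of the top pair of regions overlapped, for example for Col1a2, Col3a1, Col4a1 and Col4a2. They did not overlap for 9 members: Col6a1, Col6a2, Col4a6 and Col11a2, which were highest in the stroma region, Col20a1 and Col22a1, highest in the endothelial region, and Col11a1, Col24a1 and Col8a2, highest in region 9. Col11a2 rested on 12 counts in the stroma region, at 2.82 to 3.02 CPM. Region 9, lower by its mean, had 3.16 CPM of Col11a2 in the library of replicates 1 and 2, above these values. The shares of all genes highest in a region, or without overlap, were not taken, so these counts describe the members only.

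**Figure D1:**
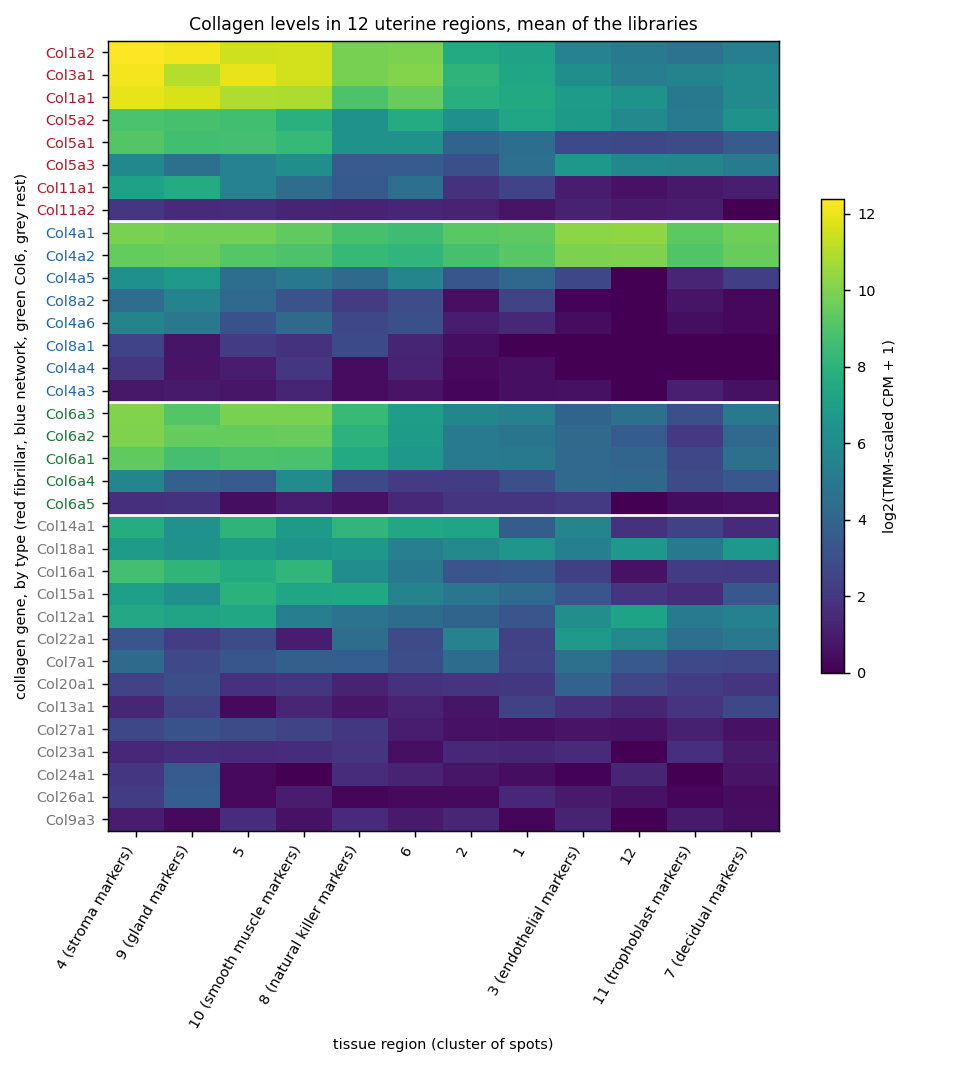
Mean level of the 35 collagen members (rows, by type) in 12 tissue regions (columns, decidual region at the right), as log2 of TMM-scaled CPM plus 1, averaged over the libraries. Fibrillar and collagen 6 genes fill the columns at the left, whereas Col4a1 and Col4a2 are high in every column.

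Summed by type, collagen 6 and fibrillar collagens varied most between regions and network collagens least. Most of the network UMIs were those of Col4a1 and Col4a2. The fibrillar sum was 14906, 12607 and 17614 CPM in the stroma region (libraries of replicates 1 and 2, replicate 3 and replicate 4 here and below), against 287, 282 and 288 CPM in the decidual region. The decidual values lay far below the stroma values and close to each other. The network sum was 1843, 1615 and 1888 CPM in the stroma region and 1623, 1322 and 1652 CPM in the decidual region, and these ranges overlapped. The makeup of the family therefore differed by region: fibrillar members were 72.7 ± 1.3% of collagen CPM in the stroma region, 67.1 ± 0.91% in the smooth muscle region and 52.2 ± 5.7% in the natural killer region, against 13.7 ± 1.5% in the decidual region (SD, n = 3 each). Network members were 77.3 ± 3.2% in the trophoblast region, 72.5 ± 2.1% in the endothelial region and 8.69 ± 0.68% in the stroma region, against 72.9 ± 0.78% in the decidual region (SD, n = 3 each). Over the whole family, collagen summed to 20666 ± 3192 CPM in the stroma region, 12536 ± 2125 CPM in the smooth muscle region, 4746 ± 346 CPM in the natural killer region, 3029 ± 365 CPM in the endothelial region and 1457 ± 69.0 CPM in the trophoblast region, against 2101 ± 241 CPM in the decidual region (SD, n = 3 each). Regions without a role were not all lower. Region 9 had 15028 ± 1378 CPM and region 5, led by Ifi27l2a, Pappa2 and Spon2, had 14397 ± 1884 CPM. Both means were above that of the smooth muscle region. Region 2, whose natural killer markers overlapped with those of the natural killer region, had 2262 ± 117 CPM (SD, n = 3 each).

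**Figure D2:**
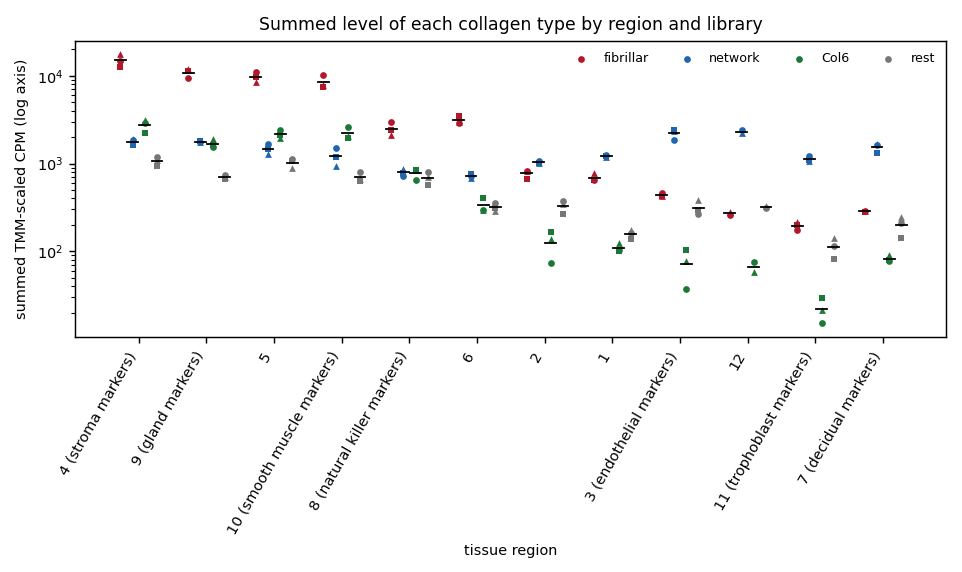
Summed TMM-scaled CPM (log axis) of the fibrillar, network, collagen 6 and other collagens in 12 regions, with the decidual region at the right. Each symbol is a library (circle replicates 1 and 2, square replicate 3, triangle replicate 4) and the bar is their mean, and the network sums (blue) stay within 719 and 2308 CPM on average while the fibrillar sums (red) run between 195 and 15042 CPM.

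Each of 6 regions was set against the decidual region, and these contrasts share the decidual sums. Calls needed an adjusted p under 0.05 (edgeR's quasi-likelihood test, Benjamini-Hochberg over 6497 genes) and a change of 1 or more on the log2 scale. In the stroma region, 22 members were called higher and 1 lower, where 23.9% and 13.7% of all genes were called in those directions. In the smooth muscle region, 19 were higher and 1 lower (all genes: 23.2% and 18.6%), and in the natural killer region 17 were higher and 3 lower (21.6% and 17.6%). The natural killer counts depended on how spots were grouped, with 11 higher and 5 lower for regions found on the other genes and 10 higher and 6 lower at a clustering resolution of 1.0. The endothelial region had 5 higher and 1 lower (15.1% and 6.97%). The trophoblast region had 0 higher and 6 lower (18.2% and 13.1%). Region 12 had 1 higher and 0 lower (7.8% and 5.29%). The median log2 fold change of the 29 genes was 3.84 in the stroma region, or 3.03 with genes absent from the decidual sums at their bound, against 0.15 for all genes. It was 3.02 in the smooth muscle region and 2.30 in the natural killer region, against 0.08 and 0.095 for all genes. It was 0.31 in the endothelial region, -0.48 in the trophoblast region and -0.23 in region 12. A gene that passed the filter only through a region where it is high had to differ, so these counts and medians describe the tested members and are no test of the family.

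**Figure D3:**
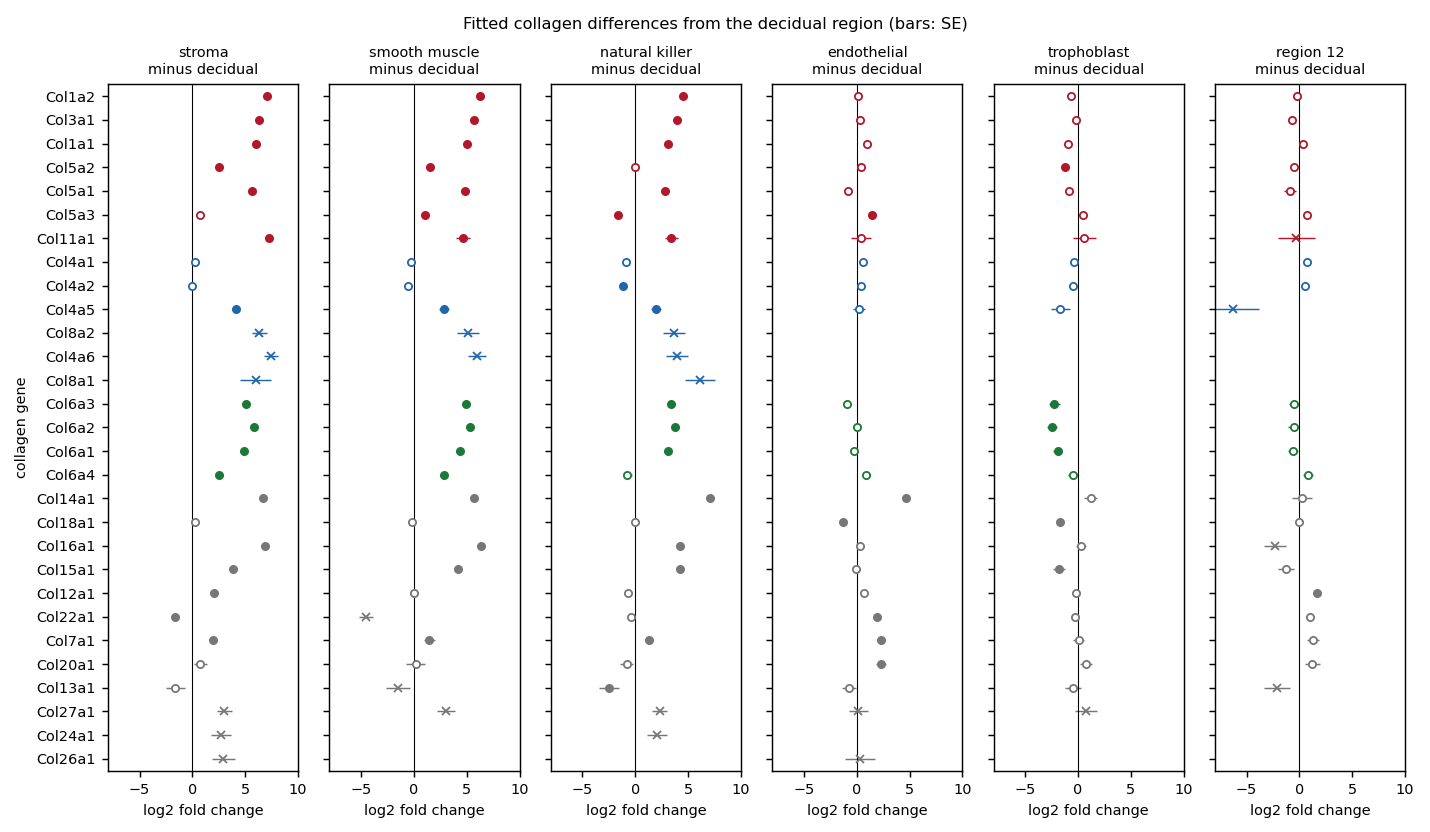
Fitted log2 fold change of the tested collagens (rows, by type: red fibrillar, blue network, green collagen 6, grey others) in 6 regions against the decidual region, with SE bars. Filled circles were called and open ones not, crosses mark genes with 1 to 3 or no counts in one of the groups, whose fitted value is no bound, and genes with too few counts in both groups are left out. Most fibrillar and collagen 6 points lie right of 0 in the first 3 panels and near 0 in the fourth and the last.

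Among the fibrillar collagens, the main fibril chains Col1a2, Col3a1 and Col1a1 were called higher in the stroma, smooth muscle and natural killer regions. Col1a2 had 5430, 4466 and 6171 CPM in the stroma region and 3316, 2567 and 2923 CPM in the smooth muscle region, against 46.6, 37.0 and 36.0 CPM in the decidual region. No value of the decidual region came near those of the other pair. The log2 fold change was 7.09 ± 0.19 in the stroma region and 6.22 ± 0.18 in the smooth muscle region (SE, edgeR's adjusted p = 3.2e-26 and 2.8e-25). Col3a1, which mixes with collagen 1 in extensible tissues, had 4523, 4030 and 5274 CPM in the stroma region, against 65.4, 54.4 and 57.0 CPM in the decidual region, a log2 fold change of 6.30 ± 0.25 (edgeR's adjusted p = 3.4e-21). Col1a1 had 3654, 3104 and 4891 CPM in the stroma region and 56.6, 31.6 and 91.3 CPM in the decidual region (6.05 ± 0.24 in log2, edgeR's adjusted p = 3.2e-21). Its decidual values lay farther apart from each other than those of Col1a2. In the natural killer region the 3 genes were intermediate: Col1a2 had 1074, 896 and 786 CPM there, a log2 fold change of 4.54 ± 0.17 from the decidual region (edgeR's adjusted p = 6.3e-22).

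The chains of collagens 5 and 11, which sit inside the fibrils and limit their width, did not move alike. Col5a1 had 573, 440 and 597 CPM in the stroma region, against 9.98, 11.9 and 9.96 CPM in the decidual region, and Col5a2 had 512, 379 and 499 CPM against 78.8, 109 and 58.1 CPM. Both were higher in the stroma region, with log2 fold changes of 5.62 ± 0.24 and 2.49 ± 0.20 (edgeR's adjusted p = 9.7e-21 and 7.1e-13), and the decidual level of Col5a2 was the one farther above 0. In the natural killer region Col5a1 was higher by 2.85 ± 0.25 in log2 (edgeR's adjusted p = 3.7e-12), whereas Col5a2 was not called at -0.04 ± 0.21. Col5a3, the third chain, had another pattern. It had 82.1, 97.7 and 107 CPM in the endothelial region, against 27.7, 37.5 and 35.4 CPM in the decidual region, and 7.09, 12.9 and 11.8 CPM in the natural killer region. These 3 groups did not overlap. It was higher in the endothelial region by 1.49 ± 0.20 in log2 (edgeR's adjusted p = 1.1e-07) and lower in the natural killer region, at -1.61 ± 0.26 (edgeR's adjusted p = 2.4e-06). Col5a3 was also called higher in the smooth muscle region, by 1.09 ± 0.25 in log2 (edgeR's adjusted p = 3.8e-04). Its 66.8, 61.3 and 84.0 CPM there overlapped with the endothelial region. Col11a1 had 167, 135 and 109 CPM in the stroma region, against 2.22, 0.457 and 0.553 CPM in the decidual region, a log2 fold change of 7.23 ± 0.39 (edgeR's adjusted p = 1.1e-17). It was highest in region 9, at 187, 195 and 198 CPM. Col11a2, left out by that filter, had 12 counts in the stroma region and 0 in the decidual region, at least 4.73-fold higher against a floor of 3 counts over the decidual sums.

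The network collagens fell into those of nearly every region and those of few. Col4a1 had 887, 887 and 1047 CPM in the stroma region and 844, 684 and 892 CPM in the decidual region, and Col4a2 had 793, 610 and 674 CPM in the stroma region and 774, 634 and 754 CPM in the decidual region. The values of these most common basement membrane chains lay close in both regions, and neither was called (log2 fold change 0.22 ± 0.13 and -0.06 ± 0.15). Neither was called in the smooth muscle region either, at -0.30 ± 0.14 and -0.57 ± 0.15. Both were highest in region 12, at 1276 and 1297 CPM for Col4a1 in its 2 libraries, and next in the endothelial region, at 987, 1318 and 1338 CPM. They were also above the decidual region there, with an adjusted p under the threshold but a log2 fold change under 1. Col4a1 had 0.68 ± 0.15 in region 12 and 0.59 ± 0.13 in the endothelial region (edgeR's adjusted p = 7.4e-04 and 4.4e-04). In the natural killer region Col4a2 was lower, with 291, 320 and 331 CPM (log2 fold change -1.19 ± 0.15, edgeR's adjusted p = 2.2e-08), and Col4a1 missed the size limit at -0.86 ± 0.13. Over the 12 regions the mean level of Col4a1 varied 3.45-fold and that of Col4a2 3.64-fold, against 209-fold for Col1a2 and 124-fold for Col1a1.

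Col4a1 and Col4a2 lie head to head on chromosome 8. In the GENCODE M21 annotation the gene on the minus strand (chr8:11198423-11312826, Col4a1) overlaps the start of the gene on the plus strand (chr8:11312805-11449287, Col4a2) by 22 bases. The promoter windows shown, from RefSeq on GRCm38.p6, run 250 bases before to 50 after each start, 5′ to 3′ on the gene's own strand, and share 78 bases. The window of Col1a2, the most counted fibrillar member, is given beside them because its level varied far more between regions. Capitals mark the motifs CCAAT and TATAAA and GGGCGG on either strand, which read ATTGG or TTTATA or CCGCCC on the other one, and no 2 matches overlap.
Col4a1 (chr8:11312777-11313076, minus strand): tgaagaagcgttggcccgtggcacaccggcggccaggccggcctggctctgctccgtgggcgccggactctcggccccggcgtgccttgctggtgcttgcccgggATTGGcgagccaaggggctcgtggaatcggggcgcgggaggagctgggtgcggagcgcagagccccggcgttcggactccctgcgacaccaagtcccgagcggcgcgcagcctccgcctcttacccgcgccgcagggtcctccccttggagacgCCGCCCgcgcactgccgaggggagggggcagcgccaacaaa
Col4a2 (chr8:11312555-11312854, plus strand): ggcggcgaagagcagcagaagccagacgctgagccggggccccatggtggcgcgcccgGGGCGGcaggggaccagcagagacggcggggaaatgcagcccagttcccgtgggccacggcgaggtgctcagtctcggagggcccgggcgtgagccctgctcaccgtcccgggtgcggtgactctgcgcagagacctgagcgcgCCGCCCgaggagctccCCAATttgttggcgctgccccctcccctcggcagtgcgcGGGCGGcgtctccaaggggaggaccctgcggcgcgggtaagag
Col1a2 (chr6:4505368-4505667, plus strand): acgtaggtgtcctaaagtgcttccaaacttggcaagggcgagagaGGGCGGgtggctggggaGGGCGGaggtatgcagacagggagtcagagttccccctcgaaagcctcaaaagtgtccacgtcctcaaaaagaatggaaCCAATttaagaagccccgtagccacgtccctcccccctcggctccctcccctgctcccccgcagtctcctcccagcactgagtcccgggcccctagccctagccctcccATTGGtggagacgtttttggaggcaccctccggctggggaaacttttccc
The window of Col4a1 held 1 CCAAT and 1 GGGCGG match, that of Col4a2 held 1 and 3, and that of Col1a2 held 2 and 2. TATAAA was in none of these 3 windows. Promoter windows were in the table for 27 members, with 29 entries, of which 34.5% held CCAAT, 10.3% TATAAA and 69.0% GGGCGG, against 37.4%, 13.6% and 35.7% of all 32851 windows of the same length. These matches are letters in a window and show no bound factor. Windows of Col12a1, Col14a1, Col1a1, Col22a1, Col26a1, Col4a3, Col5a2 and Col9a3 were not used here.

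The second collagen 4 pair, Col4a5 and Col4a6, whose genes lie head to head on the X chromosome 1308 bases apart, had a regional pattern. Col4a5 had 84.2, 53.6 and 81.2 CPM in the stroma region, against 4.44, 3.66 and 3.87 CPM in the decidual region (log2 fold change 4.10 ± 0.37, edgeR's adjusted p = 1.5e-11). Col4a6 had 48.5, 41.5 and 52.9 CPM in the stroma region, against a single count in the decidual region, a ratio of 233 with a counting interval of 41.9 to 9219. In smooth muscle, where these chains are known from muscle basement membranes, Col4a6 had 20.5, 15.3 and 19.9 CPM, a ratio of 90.8 to the decidual region (16.3 to 3588). These intervals are exact Poisson 95% intervals of the single count and cover counting error only. Col4a5 had its highest mean in region 9, at 117, 83.3 and 102 CPM. Col4a6 had 39.0, 28.4 and 27.3 CPM in region 9, above its smooth muscle value in every library. Col4a3 and Col4a4, the chains of specialised basement membranes such as that of the kidney filter, had 37 and 45 UMIs in all. The collagen 8 chains, which form hexagonal nets, had 495 UMIs (Col8a2) and 90 UMIs (Col8a1) in all. Col8a2 was highest in region 9, with 35.8, 33.7 and 66.0 CPM, and had 14.3, 18.1 and 28.2 CPM in the stroma region, a ratio of 99.0 (17.8 to 3908) to the single decidual count. Col8a1 had 30 counts in the natural killer region, at least 9.44-fold more than 3 counts over the decidual sums, where it was at 0. Its 12.8, 0.807 and 3.79 CPM there came mainly from the library of replicates 1 and 2.

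Of the collagen 6 chains, 4 of the 5 were tested and those 4 were called higher in the stroma and smooth muscle regions. Col6a3, the longest chain of the filament, had 1319, 750 and 1085 CPM in the stroma region and 1309, 767 and 802 CPM in the smooth muscle region, against 34.4, 25.6 and 33.7 CPM in the decidual region. Col6a2 had 913, 876 and 1237 CPM in the stroma region and 709, 715 and 758 CPM in the smooth muscle region, against 12.2, 20.6 and 21.6 CPM in the decidual region. The decidual values lay far below in every library, and the log2 fold changes in the stroma region were 5.08 ± 0.32 for Col6a3, 5.81 ± 0.26 for Col6a2 and 4.84 ± 0.27 for Col6a1 (edgeR's adjusted p = 1.1e-15, 6.6e-20 and 3.0e-17). In the natural killer region the 3 chains were higher by 3.06 to 3.79 in log2. In the trophoblast region the same 3 chains were called lower. Col6a2 had 0, 6.50 and 3.04 CPM there (log2 fold change -2.46 ± 0.46, edgeR's adjusted p = 3.0e-05). Col6a3 had 9.48, 6.50 and 5.32 CPM (-2.24 ± 0.50, edgeR's adjusted p = 3.1e-04), and Col6a1 had 0, 9.28 and 6.46 CPM (-1.92 ± 0.44, edgeR's adjusted p = 4.0e-04). Every one of these values lay below each decidual value of its gene. Col6a4 was separate: it was higher in the smooth muscle region, with 51.8, 52.1 and 84.0 CPM against 9.98, 11.4 and 6.64 CPM in the decidual region (log2 fold change 2.81 ± 0.34, edgeR's adjusted p = 7.0e-09), and was not called in the natural killer or trophoblast region. The mouse has this chain while the human gene is broken, and Col6a5, a related chain, had 140 UMIs in all.

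Of the other collagens, Col16a1 and Col14a1 were called higher in the stroma, smooth muscle and natural killer regions. Col16a1, which links fibrils to their surroundings, had 471, 328 and 415 CPM in the stroma region and 331, 242 and 278 CPM in the smooth muscle region, against 3.33, 2.74 and 3.87 CPM in the decidual region. Its log2 fold changes were 6.88 ± 0.23 and 6.38 ± 0.25 (edgeR's adjusted p = 2.3e-23 and 7.2e-22), close to those of Col1a2. Col14a1, which lies on the surface of fibrils, had its highest mean in the natural killer region, with 419, 180 and 262 CPM. These values overlapped with those of region 5, at 357, 216 and 219 CPM. In the decidual region it had 1.11, 0.457 and 3.87 CPM, from 9 counts. Against the decidual region, Col14a1 was compared in several regions. The log2 fold change was 7.09 ± 0.30 in the natural killer region (edgeR's adjusted p = 7.4e-21). It was 6.67 ± 0.31 in the stroma region and 4.62 ± 0.35 in the endothelial region (edgeR's adjusted p = 1.8e-19 and 5.1e-13). In the endothelial region Col14a1 had 52.7, 42.0 and 51.0 CPM, where Col1a2 had 53.7, 36.8 and 43.0 CPM and was not called at 0.16 ± 0.17. Col12a1, the relative of Col14a1, was higher in the stroma region (2.06 ± 0.27 in log2, edgeR's adjusted p = 4.8e-08) and not called in the natural killer region, at -0.66 ± 0.31. Col12a1 was also the one member called in region 12. It had 128 and 157 CPM in the 2 libraries of region 12, against 42.2, 27.0 and 59.7 CPM in the decidual region, so the groups did not overlap (1.64 ± 0.32 in log2, edgeR's adjusted p = 1.9e-04). Under spot groupings without centring or at resolutions 0.3 and 1.0, in which the roles were assigned again to new regions, the value was -3.51, -2.82 and -1.61.

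The basement membrane zone collagens 15 and 18, whose ends carry antiangiogenic fragments, differed in the natural killer, smooth muscle and stroma regions. Both had their highest mean in region 5, at 237 CPM for Col15a1 and 118 CPM for Col18a1, with values that overlapped with the next region. Both had their lowest mean in the trophoblast region. Col15a1 had 151, 159 and 191 CPM in the natural killer region and 132, 212 and 139 CPM in the smooth muscle region, against 9.98, 8.69 and 9.40 CPM in the decidual region. Its log2 fold changes were 4.27 ± 0.26 and 4.19 ± 0.29 (edgeR's adjusted p = 2.1e-16 and 6.6e-15). In the stroma region Col15a1 was higher too, with 85.0, 165 and 131 CPM (3.84 ± 0.27 in log2, edgeR's adjusted p = 1.8e-14). Col18a1 was not called there, at 0.20 ± 0.18. Col18a1 had 88.6, 105 and 91.3 CPM in the natural killer region and 96.8, 73.6 and 84.0 CPM in the smooth muscle region, against 99.8, 81.4 and 110 CPM in the decidual region, and these ranges overlapped. It was lower in the endothelial region, with 42.3, 44.7 and 32.4 CPM (-1.30 ± 0.19 in log2, edgeR's adjusted p = 5.1e-07), and in the trophoblast region, with 45.5, 14.8 and 30.8 CPM (-1.72 ± 0.22, edgeR's adjusted p = 4.4e-08). Col15a1 was lower in the trophoblast region as well, with 0, 2.78 and 3.04 CPM (-1.80 ± 0.56 in log2, edgeR's adjusted p = 0.0074).

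Col22a1, Col7a1 and Col20a1 were called higher in the endothelial region, and they differed from each other elsewhere. Col22a1, known from tissue junctions such as that of muscle and tendon, had 89.1, 89.1 and 130 CPM in the endothelial region, against 35.5, 11.4 and 42.6 CPM in the decidual region, a log2 fold change of 1.90 ± 0.20 (edgeR's adjusted p = 1.2e-09). It had 2 counts in the smooth muscle region, a level 25.6 times lower than in the decidual region with a counting interval of 7.08 to 211, and in the stroma region it was lower by a log2 fold change of -1.69 ± 0.32 (edgeR's adjusted p = 2.9e-05). No other member was called lower in the stroma or the smooth muscle region. Col7a1, the anchoring fibril collagen, had 9.95, 27.4 and 32.1 CPM in the endothelial region, against 6.66, 3.66 and 5.53 CPM in the decidual region (2.31 ± 0.33 in log2, edgeR's adjusted p = 5.7e-07), and Col20a1 had 11.9, 12.01 and 17.1 CPM in the endothelial region against 1.11, 4.57 and 2.21 CPM in the decidual region (2.29 ± 0.45, edgeR's adjusted p = 8.1e-05). Both were above the decidual region in every library. Col7a1 was also called higher in the stroma, smooth muscle and natural killer regions, by 1.95 ± 0.38, 1.44 ± 0.51 and 1.32 ± 0.38 in log2 (edgeR's adjusted p = 4.5e-05, 0.017 and 0.0033), and Col20a1 was not called in any of these. Col13a1, a membrane-spanning collagen, had its highest mean in the decidual region, but its 11.1, 1.37 and 3.87 CPM there rested on 20 counts. It was called lower in the natural killer region at 0.709, 0.538 and 0.841 CPM (-2.48 ± 0.91 in log2, edgeR's adjusted p = 0.019), and the call was lost without replicates 1 and 2 or without replicate 4.

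Region 9, the one with the highest gland markers, was the place of several rare collagens. Col24a1 had 9.47, 10.6 and 12.9 CPM there, against 2.14, 5.28 and 1.41 CPM in the stroma region, and the groups did not overlap. Col26a1 averaged 12.1 CPM there and 3.38 CPM in the stroma region, but its libraries overlapped. Col3a1 was lower in region 9, at 1969, 2022 and 2249 CPM, against 4523, 4030 and 5274 CPM in the stroma region, and Col1a2, at 3974, 4935 and 4871 CPM, overlapped with the stroma region. The 12 stroma markers summed to 15356 to 16106 CPM in region 9 and 8525 to 9592 CPM in the stroma region, and the 8 gland markers to 7799 to 12694 CPM and 1039 to 3517 CPM. A contrast of region 9 with the stroma region, added after these levels were seen, called 2 members higher and 5 lower in region 9, where 2.43% and 3.97% of all genes were called (edgeR's quasi-likelihood test). The counts depended strongly on how spots were grouped.

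Chains that share a molecule differed in how constant their ratio was across regions. The ratio of Col4a1 to Col4a2 was 1.10 to 1.58 as a mean over libraries in the 12 regions. Collagen 1 has more of its first chain than of its second in the protein, yet the ratio of Col1a1 to Col1a2 UMIs was 0.72 ± 0.064 in the stroma region, 0.636 ± 0.060 in the smooth muscle region and 0.525 ± 0.036 in the natural killer region, and 2.53 ± 0.45 in the endothelial region, against 1.54 ± 0.89 in the decidual region (SD, n = 3 each). In the decidual region it was 1.21, 0.852 and 2.54, so the libraries disagreed there. The ratio of Col5a1 to Col5a2 was 1.49 ± 0.53 in the smooth muscle region, 1.16 ± 0.039 in the stroma region and 0.99 ± 0.13 in the natural killer region, and 0.06 in both libraries of the endothelial region with at least 20 counts of each chain, a spread of 24.8-fold between region means. Col5a3 to Col5a1 was 12.9 and 20.1 in those 2 libraries of the endothelial region and 0.077, 0.111 and 0.117 in the stroma region. Col6a1 to Col6a2 stayed between 0.622 and 1.15 and Col6a3 to Col6a1 between 0.788 and 2.10 over the regions in which they could be given.

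**Figure D4:**
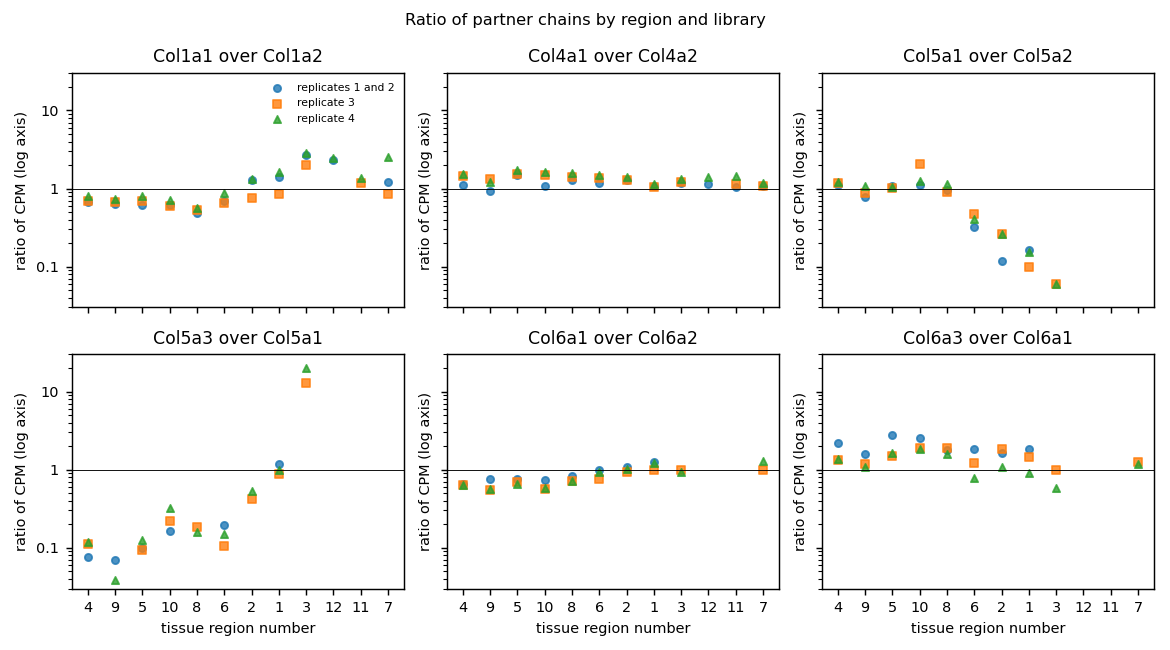
Ratio of the TMM-scaled CPM of 6 chain pairs (panels, log axis, same scale) in each region, numbered as in the text with the decidual region (7) at the right, for sums with at least 20 counts of both chains. Symbols are libraries. Col4a1 over Col4a2 lies flat near 1, and Col5a1 over Col5a2 is lowest in region 3, where Col5a3 over Col5a1 is highest.

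Across single spots, thinned to 3000 UMIs to make depths alike, chain pairs ranked together to different degrees. Spearman's rho of Col1a1 with Col1a2 was 0.814 over 1605 spots in the library of replicates 1 and 2, 0.803 over 1078 in replicate 3 and 0.792 over 1083 in replicate 4. Col6a1 with Col6a2 had 0.652, 0.61 and 0.604, and Col4a1 with Col4a2 had 0.193, 0.293 and 0.261. Without thinning, Col4a1 with Col4a2 had 0.392, 0.715 and 0.656, so its size depends on the thinning. These values describe spots that share a library and a section.

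Of 71 genes that modify, assemble, bind or cleave collagen, 62 were tested. In the stroma region 39 were called higher and 5 lower, in the smooth muscle region 32 and 7, in the natural killer region 21 and 9, in the endothelial region 15 and 4, in the trophoblast region 5 and 16 and in region 12 6 and 3, to be read against the same shares of all genes as above. Their median log2 fold change was 1.81 in the stroma region, 0.51 in the natural killer region and -0.55 in the trophoblast region, against 0.15, 0.095 and 0.09 for all genes. Serpinh1, the chaperone that binds procollagen in the endoplasmic reticulum, had 1889, 1511 and 1927 CPM in the stroma region, against 126, 159 and 153 CPM in the decidual region (log2 fold change 3.59 ± 0.16, edgeR's adjusted p = 1.1e-19). It was higher in the smooth muscle, natural killer and endothelial regions too, by 3.06, 2.73 and 1.37 in log2. Hspa5, a general chaperone of the same compartment, went the other way, with 350, 263 and 313 CPM in the stroma region, against 1212, 837 and 1086 CPM in the decidual region (-1.75 ± 0.14, edgeR's adjusted p = 1.8e-13).

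Of 12 listed small proteoglycans and glycoproteins that coat fibrils, 10 were tested. All 10 were called higher in both the stroma and the smooth muscle region, where 23.9% and 23.2% of all genes were. This was the highest share among the pathway lists, with median log2 fold changes of 6.34 and 6.004. A gene that passed the filter on low counts only through a region where it is high had to differ, so this count is no test of the list. Lum, which regulates fibril spacing, had 772, 507 and 702 CPM in the stroma region, against 2.22, 2.29 and 3.32 CPM in the decidual region (7.85 ± 0.39, edgeR's adjusted p = 8.6e-19). Of the crosslinking enzymes, Loxl1 was higher in the stroma region by 4.62 ± 0.23 (edgeR's adjusted p = 2.1e-18), while Lox, the founding member, was not called there at 0.30 ± 0.21. Lox was lower in the natural killer region, with 17.7, 17.5 and 17.7 CPM, against 209, 103 and 306 CPM in the decidual region (-3.48 ± 0.27, edgeR's adjusted p = 8.2e-14), and in the trophoblast region, with 28.5, 16.7 and 31.5 CPM (-2.95 ± 0.28, edgeR's adjusted p = 4.1e-11). Tgm2, which crosslinks by another chemistry, was lower in the natural killer region by a log2 fold change of -3.63 ± 0.16 (edgeR's adjusted p = 3.7e-20).

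Pcolce, which speeds the removal of the procollagen C-terminal end, had 757, 599 and 860 CPM in the stroma region, against 18.9, 14.6 and 18.3 CPM in the decidual region (5.42 ± 0.22, edgeR's adjusted p = 4.3e-21). The enzymes that cut collagen differed by region. Mmp9, a gelatinase that also cuts collagen 4, had 1039, 763 and 846 CPM in the trophoblast region, against 25.5, 14.6 and 24.3 CPM in the decidual region (5.42 ± 0.22, edgeR's adjusted p = 1.5e-20), and 0, 1.88 and 2.10 CPM in the natural killer region (-3.60 ± 0.43, edgeR's adjusted p = 5.0e-09). Mmp2, the other gelatinase, was higher in the natural killer region, with 360, 265 and 341 CPM, against 16.6, 11.9 and 13.8 CPM in the decidual region (4.55 ± 0.30, edgeR's adjusted p = 1.0e-15), and in the stroma region (4.84 ± 0.30, edgeR's adjusted p = 4.3e-16). Among the receptors, the collagen-binding integrin chain Itga2 was higher in region 12, with 206 and 167 CPM against 45.5, 28.4 and 37.6 CPM in the decidual region (2.28 ± 0.19, edgeR's adjusted p = 2.8e-11), where Col4a1 and Col4a2 were highest. It was lower in the stroma region, at -1.74 ± 0.25 (edgeR's adjusted p = 2.0e-07).

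**Figure D5:**
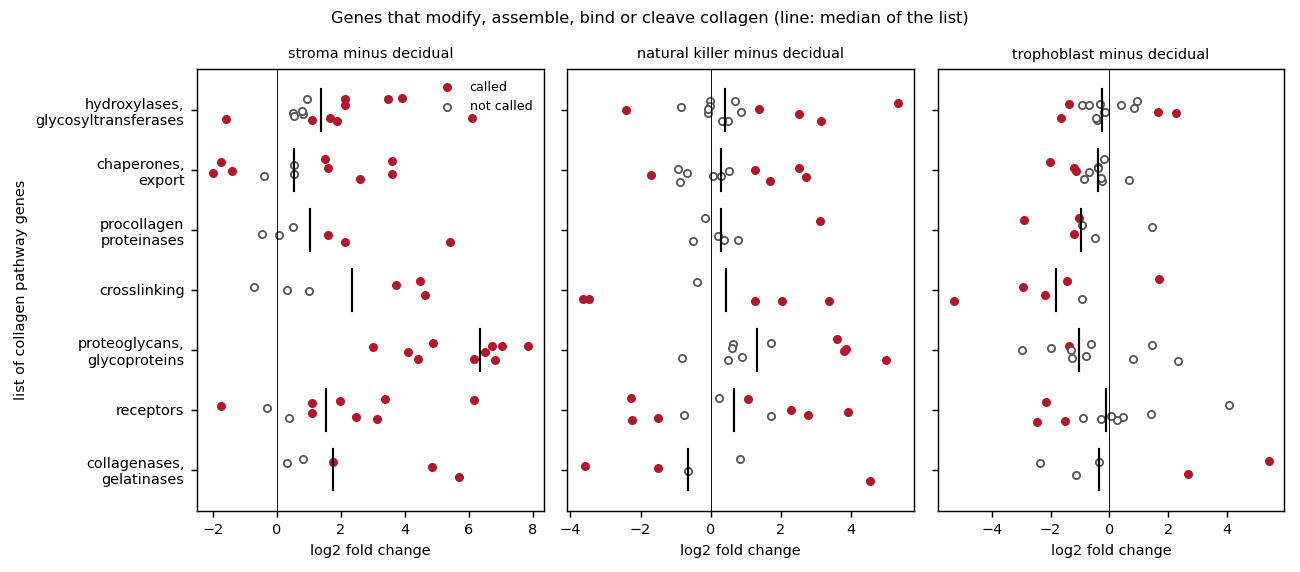
Fitted log2 fold change of the tested genes of 7 collagen pathway lists (rows) in the stroma, natural killer and trophoblast regions against the decidual region. Filled points were called, open ones not, and the line is the list's median, which lies farthest right for the proteoglycans and glycoproteins in the stroma region (6.34).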

How the data were processed

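The deposited values were UMI counts per gene and spot, whole numbers without normalization, made by the authors; the file headers name Space Ranger 1.2.2. Cell Ranger and the build mm10 come from the submitters' processing notes. Aligner settings, the annotation and how spots were selected were not given in the sources used here. Of 3978 spots, 39 with under 1000 UMIs were left out (38 and 1 in the first 2 libraries). The libraries shared 559 spot barcodes, which belong to slide positions. Spot positions were not used here.

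Regions were found by Leiden clustering (resolution 0.6, seed 0, 15 neighbours, 20 principal components) on the 1500 most variable genes of 16142 randomly drawn genes, after centring within each library and without the 236 genes of the collagen, pathway and marker lists. The fit held the genes outside that draw together with the listed genes. Spots were not checked for doublets, since each holds several cells. Summing a region's spots within a library, where it had 20 or more, gave 35 sums of 323106 to 6010229 UMIs and 6497 genes after filterByExpr. They were fitted with edgeR 4.0.16 (R 4.3.3), with TMM scaling, the library as a block and the quasi-likelihood test. Levels are TMM-scaled CPM. Simulated counts for the smooth muscle contrast (6497 genes) gave an adjusted p under 0.05 for 14.9%, 44.8% and 86.4% of genes changed by 1.5, 2 and 4 times, and for 0.0953% of unchanged genes.

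Named members were, per contrast, up to 4 called higher and 4 called lower with the largest change and 1 sign in every library, the 2 most counted members of each type and their partner chains, and up to 3 genes per pathway list; Col5a1, Col5a2, Col11a2, Col4a3, Col4a4, Col4a5, Col8a2, Col6a4, Col6a5, Col24a1 and Col26a1, and the stroma values of Lox, Hspa5 and Itga2, are named beside these and were chosen after their values were seen. Members and lists were chosen with earlier results of these data known. Of the region roles, each went to the region with the highest mean of its marker list among regions not yet taken, in the order decidual, smooth muscle, stroma, endothelial, natural killer, trophoblast and embryo. Alternatives were relative log expression scaling, DESeq2 1.42.0, no filter on low counts, dropping the fold limit or the library block, clustering on the other genes, without centring or at resolutions 0.3 and 1.0, other spot filters (none and 5000 UMIs), each library left out, and other thinning (1000 UMIs or none).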

Additional observations from a re-analysis of the deposited data

How the results depend on the processing

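Counts of members called across regions, and those called higher in the stroma, smooth muscle and trophoblast regions, stayed within 1.5 times of the reported counts under every alternative run, including the fit without the replicate block. With no minimum fold change, calls moved to 10 higher and 3 lower in the endothelial region, 2 lower in the smooth muscle region, 10 lower in the trophoblast region and 4 higher in region 12. Clustering on the other genes gave 4 lower in the endothelial region and 11 higher and 5 lower in the natural killer region. Without centring there were 2 lower in the stroma region and 5 lower in the natural killer region. Resolution 0.3 gave 5 lower in the natural killer region. Resolution 1.0 gave 5 lower in the endothelial region and 10 higher and 6 lower in the natural killer region. At least 5000 UMIs per spot gave 8 higher in the endothelial region. Leaving out a library gave 1 to 2 lower in the stroma region and 1 to 2 lower in the endothelial region.

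The role that region 12 filled was not stable. Higher calls there were 2 with relative log expression, DESeq2, no block or at least 5000 UMIs, 18 with the other genes, 10 without centring, 12 at resolution 0.3 and 0 at resolution 1.0. Lower calls were 1 with DESeq2 or no filter, 2 with the other genes, 3 without centring, 2 at resolution 0.3 and 11 at resolution 1.0. Col12a1 reversed to -3.51 without centring, -2.82 at resolution 0.3 and -1.61 at resolution 1.0, where the roles were assigned again to new regions. Leaving out a library gave 1 to 2 higher and kept Col12a1 at 1.42 to 1.72, where without replicates 1 and 2 or replicate 4 the region had 1 sum, assumed to vary like the other regions.

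The contrast of region 9 with the stroma region had 10 lower with no minimum fold change, 1 higher without the replicate block, 15 lower with the other genes or at resolution 1.0, 1 higher and 19 lower without centring or at resolution 0.3, 1 higher with no minimum UMIs, 0 higher and 19 lower at 5000 UMIs, and 0 to 2 higher without single libraries. Relative log expression moved the smooth muscle contrast by 0.15 in log2 at the median of all genes. Col13a1 in the natural killer region lost its call under 4 alternatives, Col8a1 there under 2, and Col15a1 in the trophoblast region and Col12a1 in region 12 under 1 each. The cause of these changes was not tested. Rank correlations across spots depend on thinning: Col4a1 with Col4a2 had a mean rho of 0.588 unthinned and 0.121 at 1000 UMIs. The 6 members left out by the filter on low counts had 37 to 140 UMIs in all and were tested in the fit without that filter.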
